A study of Mus musculus with 18 samples.

Results

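Aminoacyl-tRNA synthetases are the enzymes that attach each amino acid to its tRNA. The 44 genes described here are the nuclear genes that the deposited expression table places in KEGG's aminoacyl-tRNA biosynthesis pathway, with at least 10 counts in 3 or more of the 18 libraries and no mitochondrially encoded tRNA gene among them. They were 44 of the 57180 genes in the table, of which 30237 had at least some counts, and the count minimum removed 0 genes. By the role of their product, 21 encode cytosolic synthetases and 17 encode mitochondrial ones. Among the 21 are Gars and Kars, whose single genes supply glycyl- and lysyl-tRNA synthetase to both compartments. The other 6 make or modify charged tRNAs, 4 in mitochondria (Mtfmt, Gatb, Gatc and Qrsl1) and 2 in the cytosol (Pstk and Sepsecs).

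The libraries came from L929 cells, a mouse fibroblast line of WT genotype, in 6 groups of 3 independent cultures that were treated to ask how a low aspartate supply alters the response to cytosolic DNA. Mock cells received DMSO. AOA (aminooxyacetic acid, an inhibitor of aminotransferases, which make aspartate among other amino acids) was given at 0.5 mM, with 1 h as pretreatment. HT-DNA, herring testis DNA that activates the cytosolic DNA sensor cGAS, was transfected with Lipofectamine 2000 at 0.5 μg/ml for 6 h. Aspartate was supplied at 20 mM. The groups were Mock, AOA, AOA+Asp, HT-DNA, HT-DNA+AOA and HT-DNA+AOA+Asp, and no group received aspartate without AOA. No group is described as given Lipofectamine 2000 without DNA. Effects of HT-DNA and of the transfection itself therefore cannot be told apart, also where a change is called one of HT-DNA. For AOA and AOA+Asp, the time with AOA beyond the 1 h of pretreatment was not given in the sources used. Whether it equalled that of the groups with HT-DNA is therefore not known. All groups are of a single cell line, so the values describe L929 cells only. In bulk RNA of this kind, fewer cells that transcribe a gene and less of its RNA per cell cannot be told apart.

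Each synthetase charges tRNAs with its own amino acid, and most amino acids have one enzyme in the cytosol and a separate, nuclear-encoded enzyme that is imported into mitochondria. Several cytosolic enzymes sit together in the multi-synthetase complex, held by scaffold proteins. When a tRNA lacks its amino acid, the kinase GCN2 (Eif2ak4) phosphorylates eIF2, which favours translation of the transcription factor ATF4, and many cytosolic synthetase genes are known ATF4 targets.

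Library totals ran from 17901605 to 24057343 counts (median 20385838). The fibroblast genes Col1a1 (117 to 159 CPM, counts relative to library size as edgeR's cpm function gives them), Vim (2300 to 2966 CPM) and Pdgfrb (87.1 to 265 CPM) were present, whereas Thy1, Dcn and Lum were at or near 0, and no epithelial, endothelial or leukocyte marker exceeded 10 counts in a library. The HT-DNA+AOA libraries stood apart from each other, with mean correlations to their own group of 0.9798, 0.9858 and 0.981 against 0.9884 to 0.9912 for the other 15 libraries. Counts that rest on that group are therefore given with its libraries left out in turn. Unless stated otherwise, levels are CPM scaled by edgeR's TMM factors, changes are log2 fold changes with their standard error (SE), and p-values are Benjamini-Hochberg adjusted over 14263 genes from edgeR's quasi-likelihood test with a threshold of 0.05.

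Promoter sequence bears on these genes because ATF4 dimers bind a known composite element, searched for here as TGATGNAA or, on the opposite strand, TTNCATCA. RefSeq windows of 300 bases (250 before the transcript start and 50 after it, GRCm38.p6) matched 32 of the 44 members. The letters were present in 5 of 14 cytosolic synthetase genes (35.7%), 0 of 14 mitochondrial ones and 0 of the 4 other members, against 1219 of 27025 genes with a window (4.51%). A match is a description of the letters and not a binding site, and no match says only that they are absent from this window. Capitals mark the match in the sequences of all 5 genes, written 5′ to 3′ on the strand of the gene. The stretches of Aars (chr8:111033692-111033841, plus strand), Gars (chr6:55037851-55038000, plus strand) and Tars (chr15:11399659-11399808, minus strand) are the 150 bases before the start, with the match beginning 112, 30 and 15 bases before it.
Aars: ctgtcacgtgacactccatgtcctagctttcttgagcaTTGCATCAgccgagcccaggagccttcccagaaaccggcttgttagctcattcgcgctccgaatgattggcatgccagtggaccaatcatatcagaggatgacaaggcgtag
Gars: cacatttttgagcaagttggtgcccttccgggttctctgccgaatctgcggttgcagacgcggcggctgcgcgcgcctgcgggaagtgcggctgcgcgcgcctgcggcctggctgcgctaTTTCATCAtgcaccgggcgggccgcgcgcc
Tars: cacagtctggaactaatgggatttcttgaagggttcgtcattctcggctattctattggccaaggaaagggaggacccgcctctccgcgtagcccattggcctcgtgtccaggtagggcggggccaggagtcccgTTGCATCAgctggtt
Aars had another match from transcript base 10 (chr8:111033840-111033869, plus strand), Iars had its match from base 8 (chr13:49682126-49682155, plus strand) and Yars from base 4 (chr4:129189895-129189924, plus strand), shown in runs of 30 bases.
Aars: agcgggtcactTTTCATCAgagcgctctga
Iars: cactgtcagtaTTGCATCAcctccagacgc
Yars: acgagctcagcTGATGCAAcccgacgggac

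In Mock cells, cytosolic synthetase mRNAs were more abundant per length than mitochondrial ones. The median level per kilobase of the longest annotated transcript was 61.2 RPKM for the 21 cytosolic genes, from 5.95 for Tarsl2, a threonyl-tRNA synthetase paralog, to 246 for Sars (seryl-tRNA synthetase). Gars came next at 216 RPKM. The 17 mitochondrial genes had a median of 6.48 RPKM, from 2.35 for Pars2 (prolyl) to 76.7 for Lars2 (leucyl). After Lars2, whose counts moved with ribosomal RNA as described further on, the next was Tars2 (threonyl) at 40.7 RPKM. With AOA the medians were 82.9 and 7.34 RPKM.

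Summed over the 21 cytosolic synthetases, Mock libraries held 5381.1 to 5490.7 CPM and AOA libraries 7537.9 to 7757.3 CPM. The sum was 5742.8 to 6008.5 CPM with AOA+Asp, 5315.9 to 5373.4 CPM with HT-DNA, 7571 to 7892.1 CPM with HT-DNA+AOA and 6067.2 to 6324.4 CPM with HT-DNA+AOA+Asp. Both groups given AOA without aspartate lay above the other 4 groups, and the AOA and HT-DNA+AOA ranges overlapped each other. As a mean over the 21 genes of log2 CPM minus the Mock mean, AOA libraries were at 0.38 to 0.43 and HT-DNA+AOA libraries at 0.40 to 0.42. The 17 mitochondrial synthetases gave 0.21 to 0.27 in AOA libraries and 0.12 to 0.24 in HT-DNA+AOA libraries by the same measure, and 0.063 to 0.094 with HT-DNA alone. Whether the classes differ in their response was not tested, because genes of a class are not replicates.

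**Figure D1:**
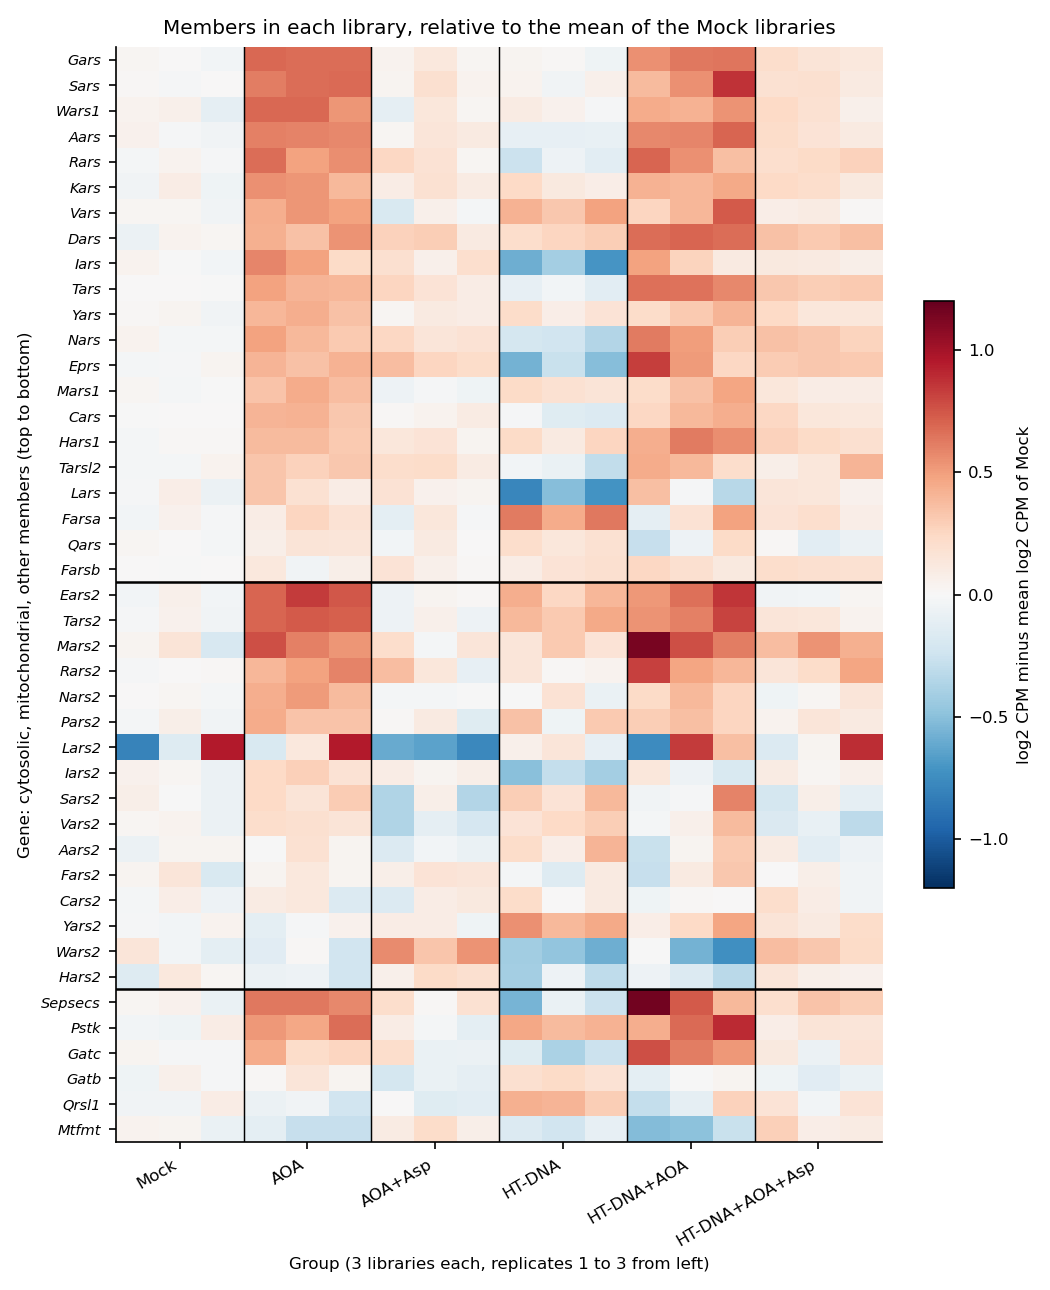
Colour gives log2 CPM minus the mean log2 CPM of the 3 Mock libraries for 43 of the 44 members (vertical axis, by class and then by the AOA value) in each of 18 libraries (horizontal axis, by group). Most cytosolic genes at the top are red in the AOA and HT-DNA+AOA columns, whereas the mitochondrial genes, in order of their AOA value, run from red to pale in the AOA columns.

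AOA raised 27 of the 44 members above Mock, where 22.4% of all genes tested were higher and 23.3% lower. By edgeR's test 0 members were lower, as by DESeq2's, and 1 had an unadjusted p-value under 0.05 in that direction. Cytosolic synthetases accounted for 17 of the 27, or 17 of 21 measured, with a median log2 fold change of 0.40 against 0.015 over all genes. For 20 of the 21, every AOA replicate was above every Mock replicate, which held for 29.8% of all genes. The 4 cytosolic genes not past the threshold were Lars (0.21), Farsa (0.18), Qars (0.12) and Farsb (0.054), the last of which, with Farsa, forms phenylalanyl-tRNA synthetase. With library totals in place of TMM, an alternative that shifts the median of all genes from 0.015 to -0.12, 15 cytosolic genes stayed past the threshold with a median of 0.27, and all genes divided into 2124 higher and 4502 lower in place of 3199 and 3317.

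Gars had the largest increase among cytosolic synthetases. Genes named by the size of their rise, with AOA and with HT-DNA+AOA, were chosen among those past the threshold without overlap between replicates. Its level was 523, 515 and 503 CPM in the Mock libraries and 828, 818 and 815 CPM with AOA. All AOA values exceeded all Mock values, and the log2 fold change was 0.68 ± 0.056 (SE; 1.6-fold, adjusted p = 2.29e-08). Sars, the most abundant of the class, measured 883, 868 and 880 CPM in Mock and 1344, 1398 and 1401 CPM with AOA, again without overlap (0.66 ± 0.09, adjusted p = 9.7e-06). Wars1, the tryptophanyl enzyme, went from 133, 135 and 120 CPM to 208, 208 and 186 CPM (0.63 ± 0.075, adjusted p = 1.84e-06). Aars, the alanyl enzyme, went from 467, 446 and 437 CPM to 683, 680 and 671 CPM (0.59 ± 0.058, adjusted p = 1.78e-07). AOA and Mock libraries did not overlap for either gene. Of the exon bases of Aars, 15.1% overlap another gene, mostly Exosc6, which had 581 counts in all 18 libraries together. Rars, the arginyl enzyme of the multi-synthetase complex, went from 244, 255 and 246 CPM to 395, 346 and 366 CPM without overlap (0.57 ± 0.084, adjusted p = 2.07e-05).

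Subgroups of the cytosolic class had similar medians. Of the 12 genes listed as ATF4 targets, 11 rose (median 0.41), and of the other 9, 6 rose (median 0.36). Members of the multi-synthetase complex rose in 6 of 8 cases (median 0.41) and enzymes outside it in 11 of 13 (median 0.40). By the fold of the catalytic domain, 7 of 9 class I and 9 of 11 class II enzymes rose, with medians of 0.40 and 0.43.

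Among the mitochondrial synthetases AOA raised 7 of 17 and lowered 0, with a class median of 0.19. The largest change was in Ears2, the glutamyl enzyme, which measured 20.8, 22.2 and 20.7 CPM in Mock and 34.4, 38 and 35.5 CPM with AOA. Its groups did not overlap, and its log2 fold change of 0.76 ± 0.085 (SE; 1.7-fold, adjusted p = 8.49e-07) was above that of every cytosolic synthetase, a difference that was not tested. Tars2 went from 146, 152 and 143 CPM to 238, 244 and 241 CPM (0.71 ± 0.07, adjusted p = 1.73e-07). Mars2, which charges methionine, went from 43.3, 47.3 and 37.1 CPM to 72.5, 64.2 and 61.1 CPM (0.63 ± 0.117, adjusted p = 0.000243). Neither gene had a Mock library as high as its lowest AOA library. The other 4 that rose were Rars2 (0.49), Nars2 (0.44), Pars2 (0.38) and Iars2 (0.23). The 10 not past the threshold had log2 fold changes from -0.12 for Hars2 and Wars2 to 0.23 for Sars2. With library totals the mitochondrial median was 0.061 and 5 genes were past the threshold.

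Of the 6 members that are not synthetases, 3 rose with AOA. Sepsecs (0.62) and Pstk (0.55), whose enzymes act in turn to convert seryl-tRNA into selenocysteinyl-tRNA, were among them. Of the exon bases of Pstk, 58.8% overlap Ikzf5 on the opposite strand, and how far reads of both genes were separated was not tested. Gatc, a subunit of the mitochondrial amidotransferase that makes glutaminyl-tRNA, rose by 0.31, a call that held in 8 of 14 fits and was lost with library totals and without Mock replicate 2 or 3 or AOA replicate 1. The other subunits of the same enzyme were not past the threshold, with values of 0.062 (Gatb) and -0.11 (Qrsl1), and Mtfmt, which formylates methionyl-tRNA, had -0.22 (adjusted p = 0.0649).

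**Figure D2:**
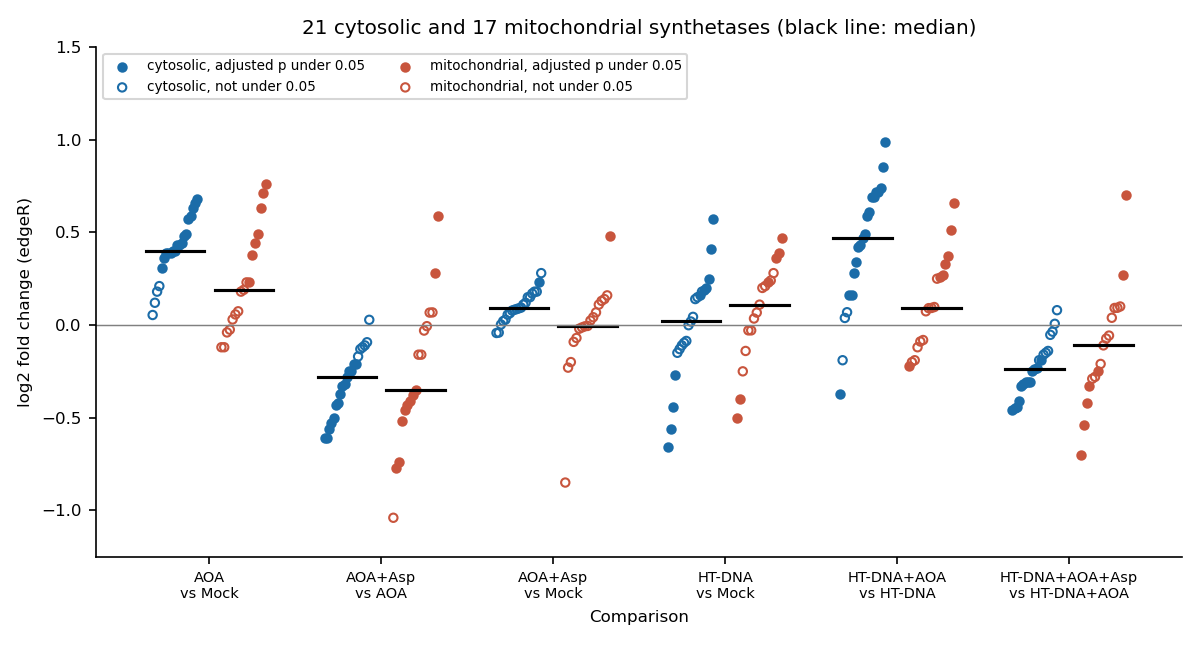
Each point is the log2 fold change (vertical axis) of a cytosolic or mitochondrial synthetase gene in 6 comparisons (horizontal axis), filled where the adjusted p-value was under 0.05, with a black line at the class median. The cytosolic median was 0.40 for AOA against Mock, -0.28 for AOA+Asp against AOA and 0.47 for HT-DNA+AOA against HT-DNA.

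Aspartate added to AOA lowered the cytosolic synthetases from their level with AOA. AOA+Asp was lower than AOA for 27 of the 44 members and higher for 3, where 22.8% of all genes were lower and 23.5% higher. Lower genes included 15 of the 21 cytosolic synthetases (class median -0.28) and 8 of the 17 mitochondrial ones (class median -0.35, or -0.26 without Lars2). With library totals, 12 cytosolic and 6 mitochondrial synthetases were lower, and 2484 of all genes in place of 3255. Leaving out 1 library at a time gave 21 to 25 lower members in place of 27. This comparison shares the AOA libraries with the preceding one, so the values of each are given side by side. Gars was at 528, 561 and 522 CPM with AOA+Asp, below all AOA libraries, and its change from AOA was -0.61 ± 0.056 (SE; adjusted p = 9.85e-08). Ears2 was at 20.3, 21.7 and 21.4 CPM (-0.77 ± 0.085, adjusted p = 9.62e-07) and Tars2 at 141, 153 and 141 CPM (-0.74 ± 0.07, adjusted p = 1.65e-07). For both, the AOA+Asp libraries overlapped Mock. Eprs, the bifunctional glutamyl-prolyl enzyme, rose with AOA (0.39, adjusted p = 0.00474) but was not past the threshold here. It was at 524, 504 and 529 CPM with AOA and 512, 471 and 460 CPM with AOA+Asp, and these groups overlapped (-0.11, adjusted p = 0.406).

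Between AOA+Asp and Mock, 2 members were higher, where 2.52% of all genes were higher and 3.95% lower. None was lower by edgeR's test or by DESeq2's (0 members), and 1 had an unadjusted p-value under 0.05. The higher members were Dars (0.23, adjusted p = 0.0404) and Wars2, the mitochondrial tryptophanyl enzyme (0.48, adjusted p = 0.0367), and the number was 0 or 1 whenever any library of either group was left out. The cytosolic median was 0.09, against 0.0054 over all genes, and 19 of the 21 values were above 0. For 10 of the 21, every AOA+Asp library was above every Mock library, which held for 17% of all genes. Eprs had the largest cytosolic value (0.28, adjusted p = 0.116).

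Wars2, Hars2 (mitochondrial histidyl enzyme) and Mtfmt were the 3 members that were higher with AOA+Asp than with AOA, and they are named because of these values. Wars2 measured 13.1, 14.6 and 12.3 CPM with AOA and 21.4, 18.2 and 20.9 CPM with AOA+Asp, without overlap (0.59 ± 0.135, SE; adjusted p = 0.0015). The same 3 were the members higher with HT-DNA+AOA+Asp than with HT-DNA+AOA, which are separate libraries. Wars2 and Mtfmt were past the threshold in 14 of 14 fits of either comparison, whereas Hars2 was in 8 of 14 without HT-DNA and in 4 of 14 with it. With HT-DNA its call was also lost by DESeq2. In that comparison Wars2 went from 14.4, 9.75 and 8.65 CPM to 18.6, 18 and 16.9 CPM (0.70 ± 0.139, adjusted p = 0.000468). In both pairs the lowest library with aspartate lay above the highest without it. Mtfmt changed by 0.35 and 0.58 and Hars2 by 0.28 and 0.27 in the absence and presence of HT-DNA. The Hars2 call without HT-DNA was lost without AOA replicate 1, 2 or 3 and AOA+Asp replicate 2 or 3, and that with HT-DNA without HT-DNA+AOA replicate 2 or 3 and HT-DNA+AOA+Asp replicate 1, 2 or 3.

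**Figure D3:**
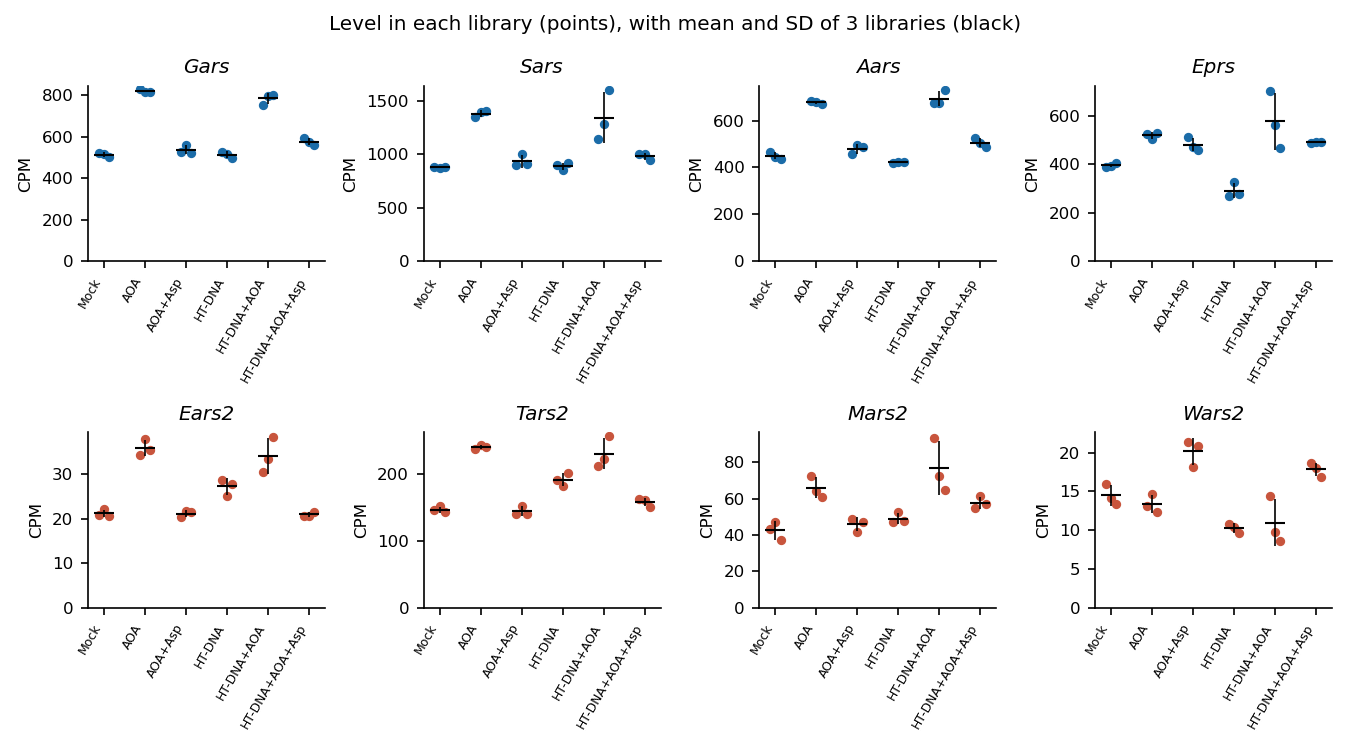
Points give CPM (vertical axis) in each library of the 6 groups (horizontal axis) for 8 synthetase genes, with the mean and SD of 3 libraries in black. Gars, Sars and Aars are high in AOA and HT-DNA+AOA, Ears2 and Tars2 are also above Mock with HT-DNA alone, and Wars2 is highest in the groups with aspartate.

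HT-DNA alone moved the members in both directions. The share higher was near that of all genes and, with TMM scaling, the share lower was below it. Relative to Mock, 13 of 44 were higher and 6 lower (29.5% and 13.6%), where 24.2% of all genes were higher and 24% lower. With library totals the members divided into 7 higher and 14 lower, and all genes into 2408 higher and 4437 lower in place of 3454 and 3425. Cytosolic synthetases gave 6 higher and 4 lower (median 0.019, or -0.092 with library totals) and mitochondrial ones 4 higher and 2 lower (median 0.11). The lower cytosolic genes were Lars (leucyl, -0.66), Iars (isoleucyl, -0.56), Eprs (-0.44) and Nars (asparaginyl, -0.27). The first 3 belong to the multi-synthetase complex, of whose 8 genes 3 were lower and 2 higher (median -0.00096). All 4 lower cytosolic genes are among the 12 listed as ATF4 targets, of which 2 were higher (median -0.091). Of the other 9 cytosolic genes, 4 were higher and 0 lower (median 0.18).

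Iars was at 278, 269 and 265 CPM in Mock and 180, 204 and 166 CPM with HT-DNA, without overlap (-0.56 ± 0.097, SE; adjusted p = 0.000191). The change of Lars (-0.66 ± 0.121, adjusted p = 0.000305) came from 154, 164 and 148 CPM in Mock and 90.1, 109 and 94.6 CPM with HT-DNA, also without overlap. Iars, Lars and Nars were past the threshold in 14 of 14 fits with other settings or libraries. Eprs was at 389, 392 and 404 CPM in Mock and 267, 328 and 278 CPM with HT-DNA (adjusted p = 0.00221), but its value was -0.044 (adjusted p = 0.462) after a correction for GC content and transcript length. The same correction ended the calls of Iars2 (-0.40, corrected -0.054) and Wars2 (-0.50, corrected -0.23), the lower mitochondrial genes, so that 0 mitochondrial synthetases were lower. Iars2 shares 24.2% of its exon bases with genes on the opposite strand, mainly Rab3gap2.

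Of the members that rose with HT-DNA, Farsa had the largest log2 fold change. It was at 60.6, 64.3 and 61.7 CPM in Mock and 95.8, 84.7 and 96.2 CPM with HT-DNA (0.57 ± 0.107, SE; adjusted p = 0.000391), and the groups did not overlap. Yars2, the mitochondrial tyrosyl enzyme, went from 27.6, 27.1 and 28.7 CPM to 40.6, 36.4 and 38.1 CPM without overlap (0.47). Vars (0.41), Tars2 (0.39) and Ears2 (0.36) also rose, and these 5 genes were past the threshold in 14 of 14 fits. The other 8 were Pstk (0.42), Qrsl1 (0.37), Dars (0.25), Vars2 (0.23), Gatb (0.20), Hars1 (0.20), Mars1 (0.19) and Yars (0.16). Of these, Pstk and Qrsl1 were past the threshold in 14 of 14 fits and Dars in 13. Mars1 was in 9 of 14, Gatb and Hars1 in 8, Yars in 5 (with values down to 0.0011) and Vars2 in 2. Without HT-DNA replicate 1, 8 members in place of 13 were higher. The members named for HT-DNA, other than Eprs, Iars, Nars and Iars2, were chosen after their values were seen.

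In HT-DNA-transfected cells AOA raised 26 members and lowered 5, where 22.8% of all genes were higher and 22.7% lower. Leaving out 1 HT-DNA+AOA library at a time gave 26, 22 and 23 higher members and 2, 4 and 9 lower ones, for replicates 1, 2 and 3. Without HT-DNA replicate 1 or 3, 3 were lower. Cytosolic synthetases rose in 17 of 21 cases (median 0.47 against 0.024 over all genes), and in 17, 15 and 15 when each HT-DNA+AOA library was left out. Mitochondrial synthetases rose in 6 of 17 cases (median 0.092). All 12 of the genes listed as ATF4 targets rose past the threshold (median 0.65), as did 5 of the other 9 cytosolic genes (median 0.28). The reference here is HT-DNA, with which 4 of the 12 were lower than in Mock. Of the 12, Mars1 (the methionyl enzyme) held its call in 5 of 14 fits with other settings or libraries and Yars (the tyrosyl enzyme) in 6 of 14. Both calls were lost with library totals, without HT-DNA replicate 2 or 3 and without HT-DNA+AOA replicate 2 or 3, and that of Mars1 also without HT-DNA replicate 1. Lower members included the cytosolic Farsa (-0.37) and, of those that act in mitochondria, Mtfmt (-0.26), Gatb (-0.23) and Qrsl1 (-0.40).

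Eprs had the largest synthetase change here. Its level was 267, 328 and 278 CPM with HT-DNA and 701, 563 and 468 CPM with HT-DNA+AOA, without overlap and with a wide spread in the second group (0.99 ± 0.105, SE; 1.99-fold, adjusted p = 3.41e-07). Iars went from 180, 204 and 166 CPM to 378, 325 and 292 CPM (0.85 ± 0.098, adjusted p = 8.64e-07). Nars went from 356, 350 and 321 CPM to 633, 580 and 505 CPM (0.74 ± 0.076, adjusted p = 1.88e-07). In all 3 genes replicate 1 of HT-DNA+AOA was the highest and replicate 3 the lowest library of that group. Aars was at 419, 421 and 423 CPM with HT-DNA and 673, 677 and 732 CPM with HT-DNA+AOA (0.72 ± 0.058, adjusted p = 9.95e-09). Tars, the cytosolic threonyl enzyme, was at 324, 340 and 319 CPM and 551, 547 and 517 CPM (0.72 ± 0.058, adjusted p = 1.03e-08). Neither gene's groups overlapped. Among mitochondrial enzymes, Mars2 went from 46.8, 52.5 and 47.4 CPM to 93.5, 72.6 and 64.9 CPM without overlap (0.66 ± 0.117, adjusted p = 0.000139), followed by Rars2 (0.51) and Iars2 (0.37). Sepsecs had the largest change of any member, from 22.1, 30.7 and 27.2 CPM to 72.6, 54.1 and 42.5 CPM (1.08 ± 0.141, 2.11-fold, adjusted p = 4.7e-06), and it was the single member past the threshold with a change of 1 or more on the log2 scale, where 10.2% of all genes were, in either direction.

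The AOA comparisons with and without HT-DNA rest on separate libraries. In both of them, 25 members were higher. Of all genes, 22.4% were higher without HT-DNA and 22.8% with it, and the share higher in both AOA comparisons was not computed. Vars and Pars2 passed the threshold without HT-DNA only, and Lars with HT-DNA only, which by itself shows no difference between them. Whether the size of the AOA effect differed was tested as an interaction term, the AOA effect with HT-DNA minus that without it. It was past the threshold for 9 members, 5 with a larger effect under HT-DNA and 4 with a smaller one, where 7.23% of all genes had a larger effect and 8.26% a smaller one. The larger effects were in Eprs (difference 0.60 ± 0.148, SE; adjusted p = 0.0128), Gatc (0.59 ± 0.148, adjusted p = 0.0144), Iars (0.42 ± 0.137, adjusted p = 0.0468), Nars (0.35 ± 0.106, adjusted p = 0.034) and Tars (0.29 ± 0.082, adjusted p = 0.0244). The smaller ones were in Farsa (-0.54 ± 0.152, adjusted p = 0.0233), Tars2 (-0.45 ± 0.098, adjusted p = 0.00644), Ears2 (-0.44 ± 0.119, adjusted p = 0.0208) and Vars (-0.42 ± 0.132, adjusted p = 0.0403). HT-DNA alone had lowered Eprs, Iars and Nars and raised Farsa, Tars2, Ears2 and Vars, but the HT-DNA and Mock libraries enter both that comparison and the interaction. Without HT-DNA+AOA replicate 1, 2 or 3, the number of members with a larger effect was 3, 2 and 7 and that with a smaller effect 3, 2 and 13. Tars2 and Gatc were past the threshold in 20 of 20 fits and Eprs in 19.

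**Figure D4:**
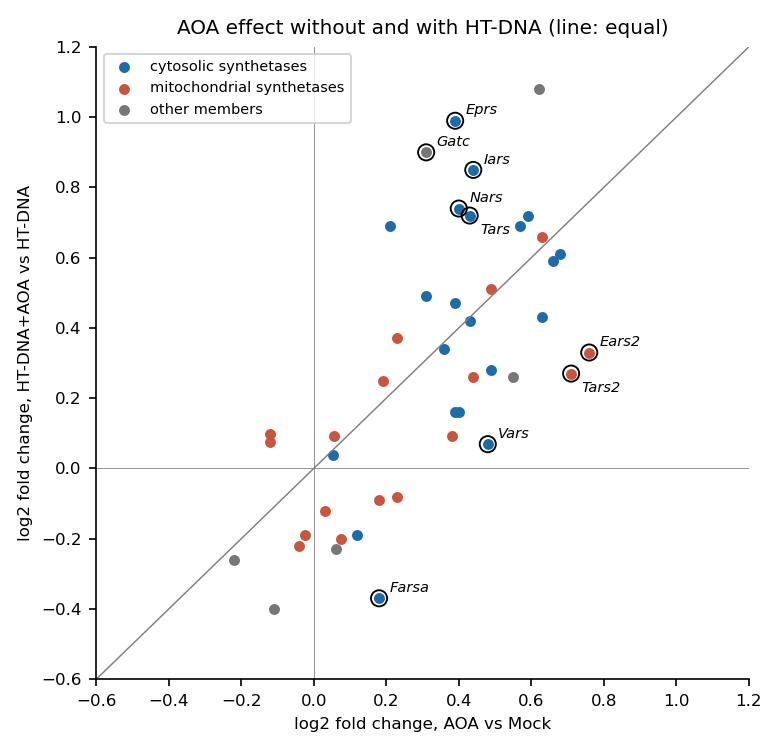
Each point is a member gene, with the log2 fold change of AOA against Mock on the horizontal axis and that of HT-DNA+AOA against HT-DNA on the vertical axis. The 9 ringed genes had an interaction past the threshold; Eprs, Gatc, Iars, Nars and Tars lie above the line of equal effects and Farsa, Tars2, Ears2 and Vars below it.

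HT-DNA was also compared within the groups given AOA. Between HT-DNA+AOA and AOA, 4 members were higher (Dars 0.24, Tars 0.20, Yars2 0.30 and Gatc 0.33) and 1 was lower (Iars2, -0.26), where 6.46% of all genes were higher and 6.98% lower. These calls depended on the libraries, with 5, 0 and 6 higher members and 4, 0 and 1 lower ones when HT-DNA+AOA replicate 1, 2 or 3 was left out. Without AOA replicate 1, 2 or 3, the higher members numbered 2, 0 and 2. Between HT-DNA+AOA+Asp and AOA+Asp, edgeR's test placed 0 of 44 members past the threshold, where 3.45% of all genes were, with 3 members at an unadjusted p-value under 0.05 and 0 by DESeq2. Log2 fold changes other than that of Lars2 (0.99, adjusted p = 0.349) ran from -0.18 for Wars2 to 0.33 for Mars2.

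Aspartate also lowered cytosolic synthetases in HT-DNA-transfected cells. HT-DNA+AOA+Asp was lower than HT-DNA+AOA for 20 members and higher for 3, where 23.9% of all genes were lower and 23.7% higher. Cytosolic synthetases were lower in 12 of 21 cases (median -0.24) and mitochondrial ones in 5 of 17 (median -0.11). With library totals these counts were 9 and 4. The total of lower members was 22, 18 and 22 without HT-DNA+AOA replicate 1, 2 or 3, and without replicate 1 there were 5 higher members. Gars was at 752, 798 and 803 CPM with HT-DNA+AOA and 594, 573 and 562 CPM after aspartate (-0.44 ± 0.056, SE; adjusted p = 3.49e-06), without overlap. Ears2 was at 30.5, 33.5 and 38.5 CPM and then 20.6, 20.7 and 21.6 CPM, also without overlap (-0.70 ± 0.085, adjusted p = 2.54e-06). Eprs, at 487, 493 and 490 CPM with HT-DNA+AOA+Asp, overlapped the range of HT-DNA+AOA (-0.24, adjusted p = 0.0676). The interaction of aspartate with HT-DNA was past the threshold for 0 members by edgeR's test, where 1.05% of all genes were, with 3 members at an unadjusted p-value under 0.05 and 0 by DESeq2, and the lowest adjusted p-value of a member was 0.237.

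Relative to HT-DNA alone, HT-DNA+AOA+Asp was higher for 16 members and lower for 10, where 23.2% of all genes were higher and 23.5% lower. The higher cytosolic synthetases numbered 10, with Lars (0.78), Eprs (0.75), Iars (0.66) and Nars (0.58) the largest, and 3 were lower (Farsa -0.42, Vars -0.35 and Qars -0.23). Correcting for GC content and length gave Vars a value of 0.037. The Qars call held in 8 of 14 fits. It was lost with library totals and without HT-DNA replicate 1, 2 or 3 or HT-DNA+AOA+Asp replicate 2 or 3. Of the mitochondrial synthetases 3 were higher and 4 lower. Without HT-DNA replicate 1, 6 members in place of 10 were lower.

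Aspartyl- and asparaginyl-tRNA synthetases use the amino acids most directly tied to the aspartate supply. Dars, the cytosolic aspartyl enzyme, measured 139, 151 and 149 CPM in Mock, 196, 186 and 212 CPM with AOA, and 177, 180 and 158 CPM with AOA+Asp. The 3 groups did not overlap, and the AOA change was 0.43 ± 0.065 (SE; adjusted p = 2.73e-05). With HT-DNA, HT-DNA+AOA and HT-DNA+AOA+Asp, Dars was at 169 to 179, 232 to 237 and 182 to 188 CPM. Nars went from 424, 405 and 404 CPM to 574, 537 and 512 CPM with AOA (0.40 ± 0.075, adjusted p = 0.000301). Nars2, its mitochondrial counterpart, went from 24.8, 25.1 and 24.4 CPM to 33.5, 35.2 and 32.2 CPM (0.44 ± 0.078, adjusted p = 0.000136). Both asparaginyl genes changed without overlap. Kars, which serves both compartments, went from 122, 133 and 121 CPM to 183, 181 and 164 CPM, without overlap (0.49 ± 0.066, adjusted p = 8.89e-06).

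Lars2, chosen here after its values were seen, varied widely between replicates. It ranged from 151 to 510 CPM over the 18 libraries (3.38-fold), with 151, 236 and 510 CPM in Mock alone, and it passed the threshold in 0 of the 9 pairwise comparisons. Rn18s-rs5, a ribosomal RNA gene, ranged from 1316 to 5047 CPM (3.84-fold) in the same libraries. Lars2 had 8.61 to 11.7 counts for every 100 counts of Rn18s-rs5 (median 10). The part of ribosomal RNA in the Lars2 counts was not tested. The other 16 mitochondrial synthetases together held 535 to 573 CPM in Mock and 719 to 747 CPM with AOA, and their median AOA change was 0.20.

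**Figure D5:**
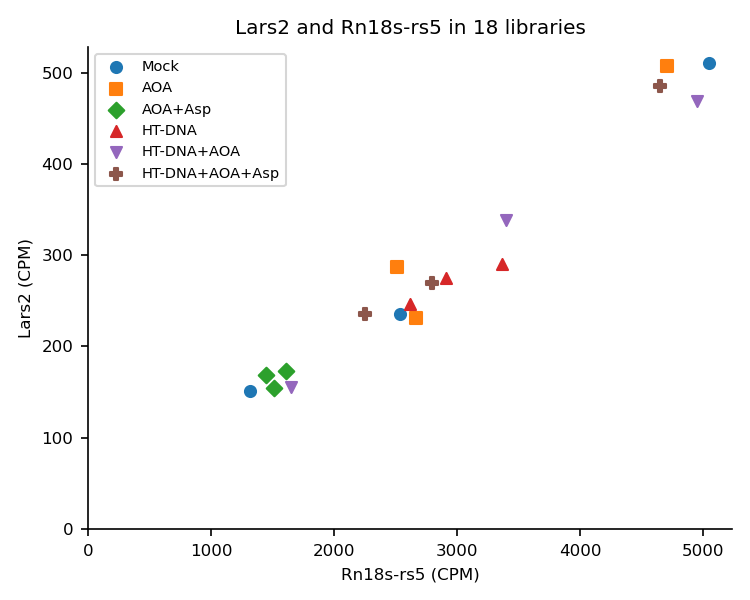
Each point is a library, with Rn18s-rs5 on the horizontal axis and Lars2 on the vertical axis, both in CPM, and the symbol gives the group. Lars2 ran from 151 to 510 CPM and libraries of 1 group lay far apart, as in Mock.

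Other genes of tRNA charging and of its stress response were read from lists drawn up for this purpose, and their counts stand beside 22.4% of all genes higher and 23.3% lower with AOA. All 3 scaffold genes of the multi-synthetase complex rose with AOA, the largest being Eef1e1 (0.87, from 82.4 to 85.7 CPM in Mock to 147 to 158 CPM). Of the 4 genes that clear wrongly charged tRNAs, 3 rose, led by the D-aminoacyl-tRNA deacylase Dtd2 (0.84). Of the 7 that deliver or export tRNAs, 4 rose, all subunits of the cytosolic elongation factor complex (Eef1a1, Eef1b2, Eef1d and Eef1g, 0.37 to 0.47), while the mitochondrial elongation factors had values of 0.11 (Tufm) and 0.26 (Tsfm). Of the 8 genes listed for the response to uncharged tRNA, 6 rose, namely Ddit3 (3.0), Chac1 (1.91), Trib3 (1.17), Ddit4 (1.05), Sesn2 (0.89) and Asns (0.47). Charging of tRNAs was not measured in these libraries, and what raised these genes was not tested. Of the exon bases of Mars1, 2% overlap Ddit3 on the opposite strand. Atf4 mRNA itself was not past the threshold (0.16, adjusted p = 0.124), and Eif2ak4 fell by 0.45 on the log2 scale. With AOA+Asp relative to AOA, 2 of 3 scaffold, 3 of 4 clearing, 5 of 7 delivery and 7 of 8 response genes were lower and 0 higher, where 22.8% of all genes were lower. Relative to Mock, AOA+Asp had 1 delivery and 1 response gene higher and 0 lower, where 2.52% of all genes were higher and 3.95% lower. Ddit3 was at 42.9 to 48.6 CPM in Mock, 348 to 385 CPM with AOA and 101 to 107 CPM with AOA+Asp. HT-DNA alone, relative to Mock, raised 2 of 3 scaffold genes (Eef1e1 0.86 and Aimp2 0.59), 3 of 4 clearing genes (Aarsd1, Dtd1 and Dtd2) and 5 of 7 delivery genes, where 24.2% of all genes were higher and 24% lower. It lowered the delivery gene Xpot (-0.60), which exports tRNA from the nucleus. Of the response genes it lowered 4 of 8 (Ddit4 -0.50, Trib3 -0.41, Ddit3 -0.38 and Chac1 -0.37) and raised 1, Atf4 (0.21, adjusted p = 0.0416). With HT-DNA+AOA relative to HT-DNA, 6 of the 8 response genes rose, and 2 scaffold, 1 clearing and 2 delivery genes did, with 1 delivery gene lower (Tufm, -0.45), where 22.8% of all genes were higher and 22.7% lower.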

How the data were processed

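RNA of 18 L929 libraries (6 groups of 3 cultures, grouped by the labels) was analysed. The authors deposited estimated counts (expected counts) of reads per gene without normalization. The aligner, counting program, strandedness, genome build and RNA-seq test are not given in the sources used here, so no build is assigned to the counts. Of the values 11.56% were not whole and all were rounded, although the design had assumed whole counts. The 6 columns of group means were within 3.3e-05 of the mean of the 3 libraries and were not used.

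Analysis used R 4.3.3 and edgeR 4.0.16. filterByExpr with a minimum of 10 counts, a total of 15 and a smallest group of 3 kept 14263 genes. TMM factors were 0.918 to 1.07. One robust quasi-likelihood model held all libraries, with 9 pairwise comparisons and 2 interactions, Benjamini-Hochberg adjusted over all genes. Intervals from counting alone were not used, since replicates varied more than counting error (chi-square per degree of freedom 2.78 to 67). Lengths, overlaps and shared 31-base sequences came from GENCODE vM21, which may not be the authors' annotation, and promoter windows from RefSeq (GRCm38.p6).

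The members, classes and gene lists were chosen with earlier results of these data known. Genes were named by rule, as the 5 cytosolic and 3 mitochondrial synthetases with the largest rise in each AOA comparison, the aspartyl, asparaginyl, glycyl, lysyl, tryptophanyl and glutamyl-prolyl enzymes, and the genes called in opposite directions with AOA and with HT-DNA. Those with the largest rise had no overlap between replicates. A few of these genes were left out of the text. Other genes were named after their values were seen. Alternatives were DESeq2 1.42.0, RLE scaling, library totals, no count filter, at least 10 counts in every library, a minimum change of 1 on the log2 scale, fits restricted to the libraries compared, a replicate block and each library left out. A correction for GC content and length and a mitochondrial median without Lars2 were chosen after seeing the data.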

Additional observations from a re-analysis of the deposited data

Results flagged for a closer look

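The effect of AOA on 9 members differed between cells with and without HT-DNA by the interaction test of edgeR (AOA effect with HT-DNA minus that without it, on the log2 scale, Benjamini-Hochberg adjusted p-value under 0.05), and each is listed here for that reason. The difference was 0.60 for Eprs, 0.59 for Gatc, 0.42 for Iars, 0.35 for Nars and 0.29 for Tars, where AOA raised the mRNA more in the presence of HT-DNA. It was -0.54 for Farsa, -0.45 for Tars2, -0.44 for Ears2 and -0.42 for Vars, where the AOA effect was smaller or turned negative. The cause of these differences was not tested. Over 20 fits with other settings or libraries, Tars2 and Gatc were past the threshold in 20, Eprs in 19, Ears2 in 15, Farsa in 14, Iars and Tars in 10, Nars in 9 and Vars in 8.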

How the results depend on the processing

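The direction of the cytosolic and mitochondrial medians under AOA, with and without HT-DNA, was the same in all 9 settings compared, leaving out libraries aside. With library totals, all genes divided into 4087 higher and 2484 lower for AOA+Asp against AOA, 4194 and 2548 for HT-DNA+AOA+Asp against HT-DNA+AOA, and 1388 and 763 for the AOA interaction (median 0.099), in place of 3345 and 3255, 3386 and 3411, and 1031 and 1178. That scaling also gave 1 lower member for AOA against Mock, 0 higher members for AOA+Asp against Mock, and 7 higher and 14 lower for HT-DNA against Mock. A minimum change of 1 on the log2 scale left 1067 genes for AOA against Mock, 1025 for AOA+Asp against AOA, 72 for AOA+Asp against Mock, 623 for HT-DNA against Mock, 1461 for HT-DNA+AOA against HT-DNA, 1101 for HT-DNA+AOA+Asp against HT-DNA+AOA, 486 for HT-DNA+AOA+Asp against HT-DNA, 264 for HT-DNA+AOA against AOA, 103 for HT-DNA+AOA+Asp against AOA+Asp, 286 for the AOA interaction and 54 for the aspartate interaction. It left 0 members in every comparison except 1 (Sepsecs) for HT-DNA+AOA against HT-DNA. With only the libraries compared, the totals were 2462 genes and 5 higher and 1 lower members (AOA+Asp against Mock), 4167 genes, 0 lower members and 3 higher mitochondrial synthetases (HT-DNA+AOA against HT-DNA), 4278 genes and 3 lower mitochondrial synthetases (HT-DNA+AOA+Asp against HT-DNA+AOA), 394 genes and 0 members (HT-DNA+AOA against AOA), 1896 genes and 2 higher members (HT-DNA+AOA+Asp against AOA+Asp), 1019 genes, 1 higher and 1 lower member (AOA interaction) and 66 genes (aspartate interaction). The correction for GC content and length gave 1 lower member for AOA against Mock (Mtfmt), 1648 genes and 8 higher members for AOA+Asp against Mock, 4 lower members for HT-DNA+AOA against AOA, 1225 genes and 1 higher member for HT-DNA+AOA+Asp against AOA+Asp, 8 lower members for the AOA interaction and 391 genes for the aspartate interaction. It reversed Vars in HT-DNA+AOA+Asp against HT-DNA, from -0.35 to 0.037. Without a count filter there was 1 lower member for AOA+Asp against Mock, 8 higher for HT-DNA against Mock, 2 lower for HT-DNA+AOA against HT-DNA, 0 for HT-DNA+AOA against AOA, 2 higher for HT-DNA+AOA+Asp against AOA+Asp, and 303 genes with 1 higher member for the aspartate interaction. DESeq2 gave 3 lower members for HT-DNA+AOA against HT-DNA and 322 genes for the aspartate interaction. The cause of these differences between settings was not tested.

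Leaving out 1 library at a time gave the following lowest and highest counts. For AOA against Mock, these were 5449 to 5938 genes, 17 higher cytosolic genes, 25 to 27 higher members, 0 to 1 lower members and 6 to 7 higher mitochondrial genes. For the AOA interaction, these were 1145 to 5420 genes, 2 to 7 higher members and 1 to 13 lower members. For AOA+Asp against AOA, these were 5426 to 6200 genes, 13 to 15 lower cytosolic genes, 2 to 3 higher members, 21 to 25 lower members and 6 to 7 lower mitochondrial genes. For AOA+Asp against Mock, these were 359 to 724 genes, 0 to 1 higher members and 0 lower members. For the aspartate interaction, these were 69 to 416 genes, 0 higher members and 0 lower members. For HT-DNA against Mock, these were 5442 to 6663 genes, 8 to 13 higher members and 6 to 8 lower members. For HT-DNA+AOA against AOA, these were 1078 to 4157 genes, 0 to 6 higher members and 0 to 4 lower members. For HT-DNA+AOA against HT-DNA, these were 5569 to 7455 genes, 15 to 17 higher cytosolic genes, 22 to 26 higher members, 2 to 9 lower members and 5 to 6 higher mitochondrial genes. For HT-DNA+AOA+Asp against AOA+Asp, these were 232 to 418 genes, 0 higher members and 0 lower members. For HT-DNA+AOA+Asp against HT-DNA, these were 5088 to 6507 genes, 12 to 16 higher members and 6 to 10 lower members. For HT-DNA+AOA+Asp against HT-DNA+AOA, these were 5726 to 8008 genes, 11 to 14 lower cytosolic genes, 2 to 5 higher members, 18 to 22 lower members and 4 to 6 lower mitochondrial genes. The extremes for the AOA interaction came without AOA replicate 2 (1145 genes) and without HT-DNA+AOA replicate 3 (5420 genes), and the counts of genes or members also moved by over 1.5 times without Mock replicate 1, 2 or 3, AOA replicate 3, HT-DNA replicate 1 or 3, or HT-DNA+AOA replicate 1 or 2. Those for HT-DNA+AOA against AOA came without AOA replicate 2 and without HT-DNA+AOA replicate 1.

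By the median, same-numbered libraries deviated together no more than others (45 pairs, r from -0.11 to 0.28, median 0.01, as between other numbers). Of these pairs 7 had r over 0.1, and 9 of 18 libraries were closest to their own number. The numbers were not taken as pairs. With the replicate number as a block, 1 member in place of 2 was higher for AOA+Asp against Mock, and no other count of calls moved by over 1.5 times. Groups of 3 libraries limit the precision of small changes, as in Sars2 (0.23 with AOA, not past the threshold at 11 to 14.2 CPM).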

Other observations

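The genes outside the pathway whose mean level over the 6 groups was most like that of the cytosolic synthetases were compared by Pearson's r over 6 group means, among 10029 genes whose group means varied by an SD of at least 0.2 on the log2 scale. Values of r are a description, since all points come from the same libraries. Among the closest were Qtrt2 (0.997), a subunit of the enzyme that places queuine in tRNA, Apmap (0.9967) and Mthfd2 (0.9965), an enzyme of mitochondrial one-carbon metabolism. Mean levels of Qtrt2 were 55.4 CPM in Mock, 107 CPM with AOA, 64.2 CPM with AOA+Asp, 55.9 CPM with HT-DNA, 102 CPM with HT-DNA+AOA and 71.9 CPM with HT-DNA+AOA+Asp. Those of Mthfd2 were 211, 346, 229, 210, 345 and 255 CPM in the same order.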
